A study of Drosophila melanogaster with 8 samples.

Results

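The genes described here encode the machinery that takes a cell through mitosis and cytokinesis in Drosophila melanogaster, from the kinases of mitotic entry to the proteins of the cleavage furrow. They were chosen by name, as 47 symbols looked up by their FlyBase identifiers, and 46 of them had a row among the 15682 genes in the files. The centromere gene Cenp-C had none and was not analysed here. All 46 passed the filter on low counts, which 11068 genes passed in all. RNA came from pools of 30 to 50 eye discs per sample, taken from larvae of the third instar raised at 25 °C, and 8 libraries covered 4 stocks with 2 biological replicates each. The stocks were Canton S, a wild-type strain; mir-11 KO(w-), the knockout stock; and RMCE-1 and RMCE-2, named for the region of the microRNA genes mir-11 and mir-998. The abbreviation usually means recombinase-mediated cassette exchange, which swaps a DNA cassette into a prepared genomic site, and the sequences placed in those stocks, larval sex and strain background are unstated in the sources used here. No allele or treatment is named as shared by all stocks. The stated design sets wild type against miR-998 expression without a check, and which stock carries that condition is not stated.

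A cell enters mitosis when the phosphatase String activates Cdk1 bound to mitotic cyclins. Condensin then compacts the chromosomes, kinetochores attach them to spindle microtubules, and a checkpoint holds the cell until every pair is attached. The activator Fizzy then directs the anaphase-promoting complex to destroy securin and the cyclins, which frees separase to part the sister chromatids, and centralspindlin and its partners position the contractile ring. In the third instar eye disc, cells divide at random ahead of the morphogenetic furrow, arrest in G1 within it, and pass through a synchronous second mitotic wave behind it before most leave the cycle. A disc library therefore mixes dividing and non-dividing cells, and fewer dividing cells and less RNA per cell cannot be told apart in it.

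Total counts per library ran from 11929158 to 19670470. Levels are given as CPM, counts scaled to a common library total. All 10 eye disc markers, among them ey, so and gl, had reads in every library, and they summed to 1023 and 1130 CPM in the Canton S libraries, 1199 and 1220 in the knockout libraries, 1108 and 1057 in those of RMCE-1 and 1062 and 1057 in those of RMCE-2. A pair of libraries diverged from the rest. Canton S replicate 1 held 401 CPM of gut transcripts, against 1.73 to 13.2 CPM in the other libraries. RMCE-1 replicate 2 held 8438 CPM of fat body and 5009 CPM of heat response transcripts, against 64.4 to 2055 CPM and 33 to 835 CPM elsewhere. Calls and medians are given with and without these 2 libraries, while counts of libraries that do not overlap use all 8.

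Levels of different genes were compared per kilobase of exon, averaged over the 8 libraries. The cyclin-dependent kinase gene Cdk1 stood at 83.9 CPM per kb, the cyclin gene CycA at 82.5, the String gene stg at 81.0, the Polo kinase gene polo at 71.2 and the centrosomal gene tacc at 62.7. The lowest level per kb was that of cid, which encodes the centromeric histone, at 3.70, followed by the separase gene Sse at 7.31, the kinesin gene nod at 8.17 and the checkpoint kinase gene Bub1 at 9.21. With genes ranked by this level, the library ranges overlapped for 43 of the 45 pairs of neighbours, so most of the order is not resolved. The exceptions were msps over Klp10A, and Sse over cid. Within role groups, levels spread widely: the 4 anaphase genes ran from 7.31 CPM per kb for Sse to 34.9 for fzy, while the 6 cytokinesis genes lay between 23.6 (pbl) and 42.0 (feo).

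**Figure D1:**
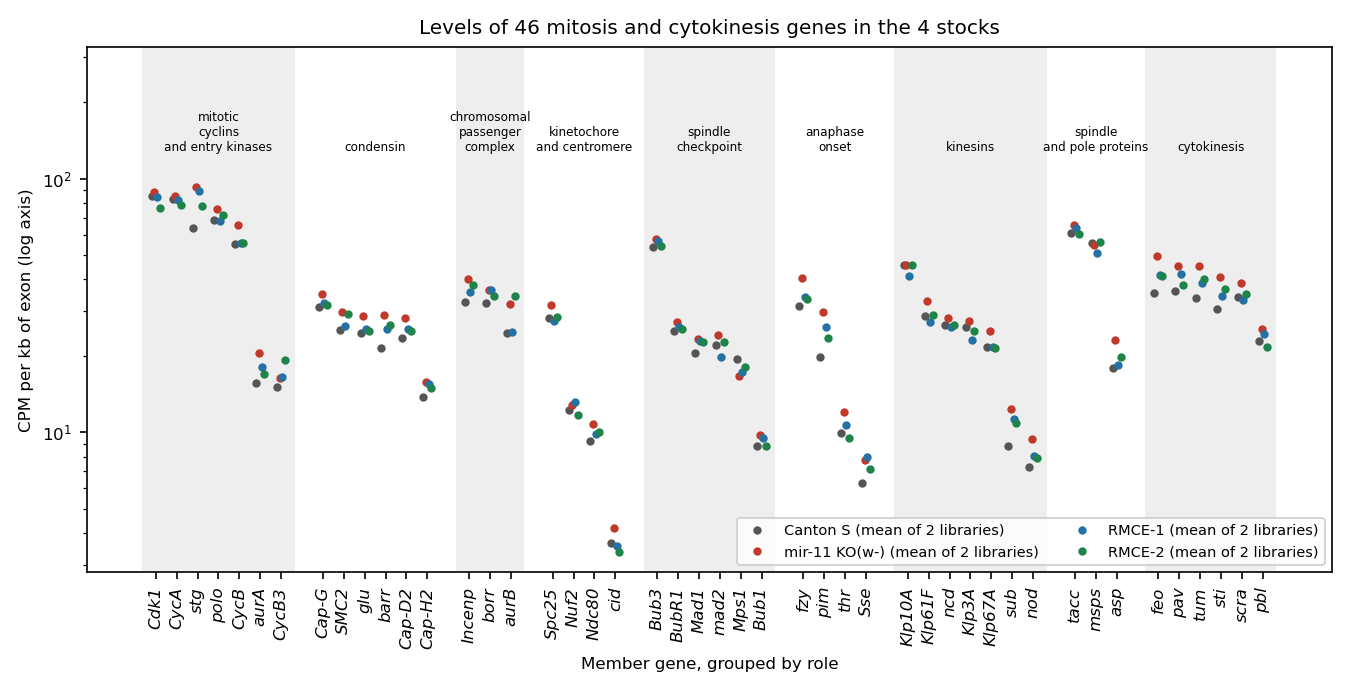
Mean level of each of the 46 genes in each stock, as CPM per kb of exon on a log axis, with genes grouped by role and points standing for the mean of 2 libraries. Cdk1, CycA and stg lie at the top, from 81.0 to 83.9 over all libraries, and cid at the bottom, at 3.70.

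The knockout stock was set against Canton S to see what accompanies the labelled loss of mir-11, from which strain background cannot be told apart. The edgeR quasi-likelihood test, with adjustment over all 11068 genes, called 8 of the 46 mitosis and cytokinesis genes higher in the knockout stock and 0 lower at an adjusted p under 0.05, and 25 had an unadjusted p under 0.05, as did 20.9% of all genes. Over all genes, 2.37% were called higher and 2.39% lower, 4.75% in all. The 8 genes were pim, stg, feo, barr, sti, aurB, fzy and thr, and their levels were 20.7% to 51.7% above Canton S. Estimates were above 0 for 43 genes and below 0 for Klp10A, msps and Mps1. The median log2 fold change over the 46 genes was 0.194, beside 0.010 over all genes tested.

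Both knockout libraries lay above both Canton S libraries for 42 of the 46 genes, where 32.2% of all genes did so. The reverse held for Mps1 alone among the 46, and for 27.2% of all genes. Summed over the 46 genes, the level was 4507 and 4595 CPM in the Canton S libraries, 5186 and 5249 in the knockout libraries, 4923 and 4558 in those of RMCE-1 and 4922 and 4623 in those of RMCE-2. The sums of the knockout stock thus exceeded those of all 6 other libraries, and replicates of the RMCE stocks lay further apart than those of the other stocks. For 24 genes both knockout libraries were the highest of the 8, a pattern of 5.56% of all genes tested.

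DESeq2 also called 8 genes, of which 6 were shared, with asp and tum in place of aurB and thr. The 8 edgeR calls rested on 2 libraries a side. Without Canton S replicate 1, or without either knockout replicate, 0 of the 46 genes were called, and 1, stg, was called without Canton S replicate 2. The number of calls over all genes fell with them, from 526 to 219, 80, 65 and 177 in the order Canton S replicate 1, knockout replicates 1 and 2, and Canton S replicate 2. The median over the 46 genes stayed between 0.173 and 0.216 whichever library was left out. Without the 2 divergent libraries it was 0.190, and 2 genes, pim and stg, were called. Transcripts of other tissues moved between these stocks too, with salivary gland markers, all 9 read in every library, at 1561 and 857 CPM in Canton S against 204 and 202 CPM in the knockout stock. Fat body markers, 6 of 7 read in every library, stood at 990 and 662 against 260 and 90.9 CPM. Hemocyte markers, all 7 read, summed to 464 and 657 against 355 and 419 CPM. Among them NimC1 went the other way, from 2.47 and 4.51 to 9.74 and 9.92 CPM. The sum of the eye disc markers rose, as given above, but not every marker did. Of these, sens fell from 20.5 and 19 to 17.3 and 17.8 CPM, and ro and gl overlapped between the stocks. Gut markers, of which Jon99Ci had no read, summed to 401 and 3.33 against 13.2 and 8.08 CPM. Neuroblast markers, all 6 read, overlapped between the stocks, with sums of 319 and 137 against 213 and 82 CPM. Among them dpn rose from 17.1 and 19 to 27.8 and 22.8 CPM, while insc fell from 23 and 21.9 to 17 and 19 CPM. The part of these transcripts in the result was not tested.

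**Figure D2:**
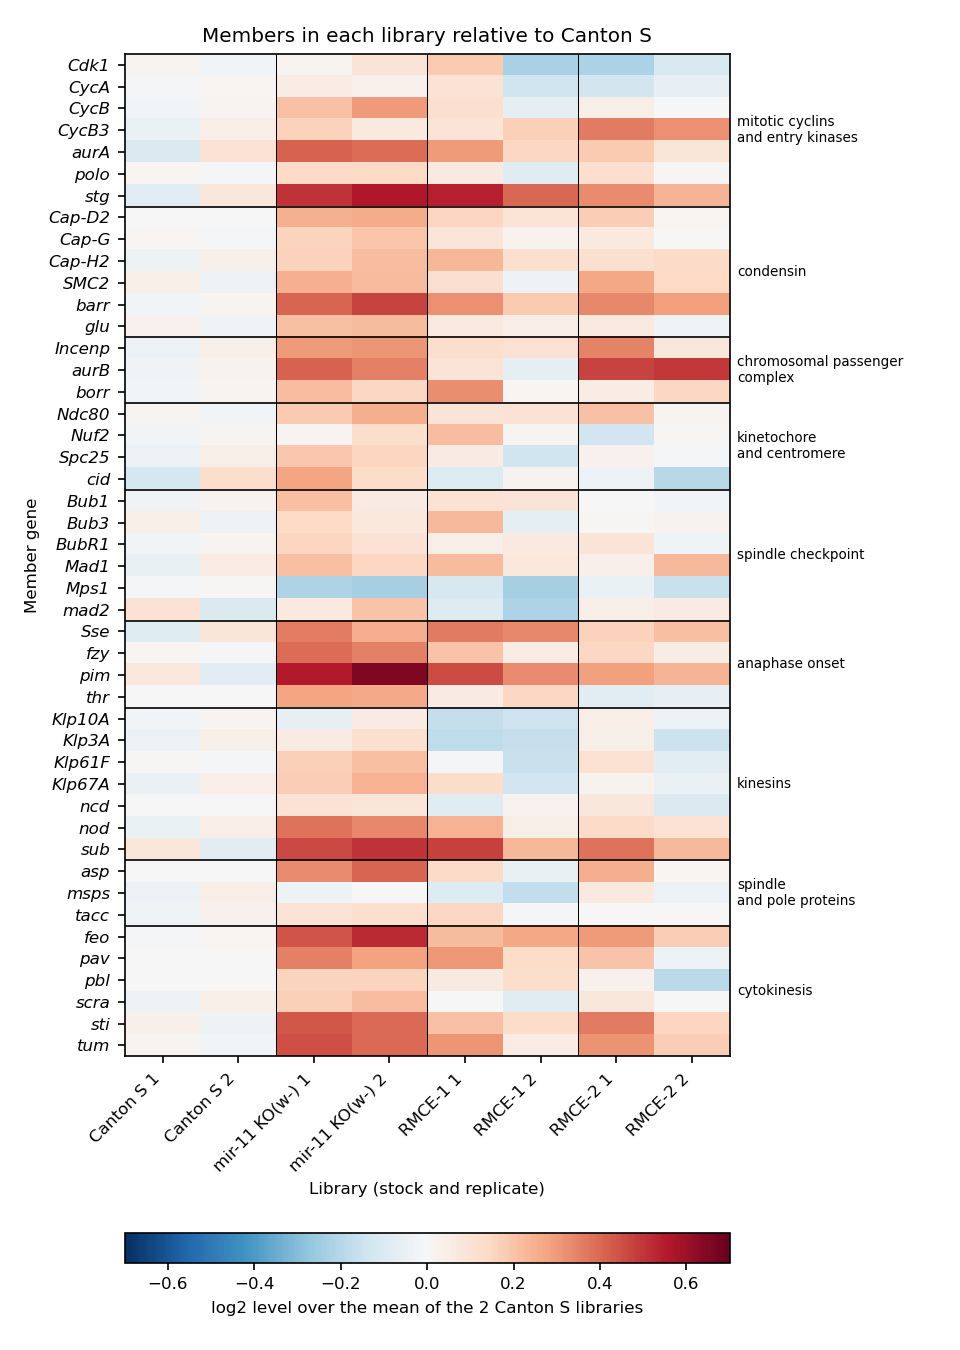
Level of each gene in each library as log2 over the mean of the 2 Canton S libraries, with genes in rows by role and libraries in columns. The knockout columns are the reddest, with median values of 0.20 and 0.22, and RMCE-1 replicate 2 and RMCE-2 replicate 2 stay near Canton S, at 0.03 and 0.01.

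Among the 7 genes of mitotic entry, 1 was called higher in the knockout stock and the group's median log2 fold change was 0.14. That gene was stg (3R 29251826 to 29255800, minus strand, BDGP6.54), whose phosphatase removes the inhibitory phosphates from Cdk1 and commonly limits division in larval discs. Its level was 186 and 207 CPM in the Canton S libraries, 279 and 289 in the knockout libraries, 286 and 259 in those of RMCE-1 and 247 and 231 in those of RMCE-2. Canton S held the lowest libraries, with no overlap with any other stock. The knockout stock was 44.6% above Canton S, a log2 fold change of 0.53 with an SE of 0.08 (edgeR adjusted p = 0.0148). The call was lost when Canton S replicate 1 or a knockout replicate was left out (edgeR adjusted p up to 0.128).

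Cdk1 and its cyclin partners had smaller estimates. The most abundant of these by CPM, CycA, stood at 241 and 246 CPM in the Canton S libraries and 252 and 249 in the knockout libraries, with a log2 fold change of 0.04 and a 95% interval from -0.16 to 0.24. For Cdk1 the estimate was 0.06, with an interval from -0.24 to 0.35. Both intervals lie below the estimate for stg, but the interval of stg, from 0.34 to 0.72, meets that of Cdk1. The difference between these genes was not tested. The kinase gene polo, which acts in entry, at kinetochores and in cytokinesis, had an estimate of 0.14 (edgeR adjusted p = 0.306). CycB at 0.25, CycB3 at 0.12 and the centrosomal kinase gene aurA at 0.40 were not called either (edgeR adjusted p = 0.113, 0.367 and 0.0706).

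Condensin, the ring complex that compacts mitotic chromosomes, had 1 of 6 genes called, where 4.75% of all genes were. All 6 had estimates above 0 and both knockout libraries above both of Canton S, where 32.2% of all genes had the latter. Every gene of the entry, passenger, kinetochore, anaphase and cytokinesis groups did so too. The called gene was barr (2L 20058163 to 20061370, minus strand), which encodes the kleisin subunit of condensin I. It stood at 61.2 and 63.0 CPM in the Canton S libraries, 82.4 and 86.3 in the knockout libraries, 77.6 and 70.4 in those of RMCE-1 and 78.5 and 75.8 in those of RMCE-2. Canton S was lowest and the knockout stock highest, without overlap of either with another stock. The knockout stock differed from Canton S by a log2 fold change of 0.44 with an SE of 0.07 (edgeR adjusted p = 0.017). It was not kept without any single Canton S or knockout library (edgeR adjusted p up to 0.148), and without the 2 divergent libraries (0.0607). The condensin genes Cap-G and glu, the 2 most abundant of the group, had estimates of 0.17 and 0.21, and SMC2, Cap-D2 and the condensin II gene Cap-H2 lay between 0.19 and 0.26.

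The chromosomal passenger complex corrects faulty attachments and later acts at the midzone. Its kinase gene aurB (2L 10856797 to 10858094, minus strand) was the 1 of 3 members called. Transcripts of aurB stood at 28.6 and 29.7 CPM in the Canton S libraries, 38.8 and 37.2 in the knockout libraries, 31.0 and 27.8 in those of RMCE-1 and 40.5 and 41.1 in those of RMCE-2. The libraries thus fell in 2 ranges, Canton S with RMCE-1 below and the knockout stock with RMCE-2 above. The knockout stock was 30.4% above Canton S (log2 fold change 0.38 with an SE of 0.08; edgeR adjusted p = 0.0396). The call was lost without any single Canton S, knockout or RMCE-2 library (edgeR adjusted p up to 0.241), without the 2 divergent libraries (0.109) and with DESeq2 (0.0877). The scaffold gene Incenp had an estimate of 0.30 and the subunit gene borr 0.18, neither called (edgeR adjusted p = 0.118 and 0.374).

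The 4 centromere and kinetochore genes and the 6 checkpoint genes of the mitosis and cytokinesis set had no call in the knockout stock by edgeR or DESeq2. Calls among further kinetochore genes, outside this set, are given below. Of the 4 centromere and kinetochore genes, edgeR called 0 at the adjusted threshold and 1 had an unadjusted p under 0.05. Their estimates ran from 0.07 for the Ndc80 complex gene Nuf2 to 0.22 for Ndc80, and cid, with 3.40 to 4.49 CPM in these stocks, had a 95% interval from -0.30 to 0.69. Of the 6 checkpoint genes, edgeR called 0 and 1 had an unadjusted p under 0.05. That 1 was Mps1, whose kinase recruits the checkpoint to unattached kinetochores. It stood at 41.2 and 41.8 CPM in the Canton S libraries and 35.7 and 35.3 in the knockout libraries, with a log2 fold change of -0.22 (edgeR adjusted p = 0.136). BubR1 and Bub3, the most abundant checkpoint genes by CPM, had estimates of 0.13 and 0.11, Bub1 and Mad1 of 0.14 and 0.18, and mad2, whose libraries overlapped between the stocks, of 0.13.

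By edgeR the genes of anaphase onset had the largest share of calls, 3 of 4, where 4.75% of all genes were called. Their median log2 fold change was 0.34. That ranking did not hold with DESeq2, which called 2 of these 4 genes and 3 of the 6 cytokinesis genes. Securin, the inhibitor of separase, is encoded by pim (2L 10362989 to 10364092, plus strand). It stood at 20.2 and 18.3 CPM in the Canton S libraries, 28.2 and 30.2 in the knockout libraries, 26.4 and 24.2 in those of RMCE-1 and 23.5 and 22.7 in those of RMCE-2. The 4 stocks did not overlap, and Canton S was lowest. At 51.7% above Canton S, the knockout stock had a log2 fold change of 0.60 with an SE of 0.09 (edgeR adjusted p = 0.015), the largest estimate among the 46 genes. The call was kept without the 2 divergent libraries (edgeR adjusted p = 0.0392) and lost without any single Canton S or knockout library (up to 0.132).

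The activator gene fzy (2L 16310956 to 16313097, plus strand) stood at 63.0 and 62.0 CPM in the Canton S libraries, 82.0 and 79.9 in the knockout libraries, 71.7 and 64.8 in those of RMCE-1 and 69.1 and 64.9 in those of RMCE-2. Both knockout libraries lay above the other 6. The log2 fold change over Canton S was 0.37 with an SE of 0.07 (edgeR adjusted p = 0.0309), lost without any single Canton S or knockout library (up to 0.205) and without the 2 divergent libraries (0.0759). The exons of fzy overlap those of cact, on the other strand, by 62 bp.

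The gene thr, which encodes a separase-associated protein needed for sister chromatid separation, stood at 45.7 and 45.4 CPM in the Canton S libraries, 55.2 and 54.8 in the knockout libraries, 47.4 and 50.3 in those of RMCE-1 and 43.3 and 43.8 in those of RMCE-2. Knockout libraries were again the highest, and RMCE-2 was the lowest. The log2 fold change over Canton S was 0.27 with an SE of 0.06 (edgeR adjusted p = 0.0493), at the edge of the threshold. It was called in 3 of 16 other settings, and was lost for instance with DESeq2 (adjusted p = 0.214) and without any single Canton S, knockout or RMCE-2 library (edgeR adjusted p up to 0.266). Exons of thr overlap those of CG14490, on the other strand, by 263 bp. The fourth gene, Sse, was not called (log2 fold change 0.30, edgeR adjusted p = 0.137).

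Genes of mitotic kinesins and spindle proteins had 0 calls by edgeR, and DESeq2 called 1, asp. For the 7 kinesin genes both tools made 0 calls, and 2 had an unadjusted p under 0.05. The most abundant, Klp10A, which encodes a microtubule-depolymerising kinesin, stood at 232 and 239 CPM in the Canton S libraries and 226 and 245 in the knockout libraries. Its libraries overlapped, and the 95% interval of its log2 fold change was -0.15 to 0.15. Klp3A, a midzone kinesin gene, had an estimate of 0.08, and the central spindle kinesin gene sub had the largest of the group, 0.48 (edgeR adjusted p = 0.0579), which was called under the stricter filter, with only the stocks compared, and without either RMCE-1 replicate. Of the 3 spindle and pole genes 1 had an unadjusted p under 0.05. The microtubule polymerase gene msps and its partner tacc had estimates of -0.02 and 0.11, and asp, which encodes a spindle pole protein, 0.36 (edgeR adjusted p = 0.0902, DESeq2 adjusted p = 0.0471).

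Cytokinesis genes had the largest group median, 0.37, with 2 of 6 called. The gene feo (X 10852446 to 10854869, minus strand) encodes the PRC1-type protein that bundles midzone microtubules. It stood at 84.8 and 86.2 CPM in the Canton S libraries, 116 and 123 in the knockout libraries, 99.6 and 103 in those of RMCE-1 and 105 and 96.3 in those of RMCE-2. The RMCE stocks lay between the others, with no overlap with either. The knockout stock was 40.2% above Canton S (log2 fold change 0.49 with an SE of 0.07; edgeR adjusted p = 0.0111), and the call was lost without any single Canton S or knockout library (up to 0.108) or without the 2 divergent libraries (0.0607).

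Citron kinase, which holds the contractile ring and midbody together, is encoded by sti (3L 12507998 to 12514815, minus strand). It stood at 191 and 182 CPM in the Canton S libraries, 252 and 245 in the knockout libraries, 215 and 204 in those of RMCE-1 and 240 and 207 in those of RMCE-2. Canton S was lowest and the knockout stock highest, without overlap. The log2 fold change was 0.42 with an SE of 0.08 (edgeR adjusted p = 0.0347), lost without any single Canton S or knockout library (up to 0.215) and without the 2 divergent libraries (0.0962). The centralspindlin genes tum and pav had estimates of 0.42 and 0.32 (edgeR adjusted p = 0.0556 and 0.118), and DESeq2 called tum (adjusted p = 0.015). The anillin gene scra and the RhoGEF gene pbl, which act at the ring itself, had 0.19 and 0.16.

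**Figure D3:**
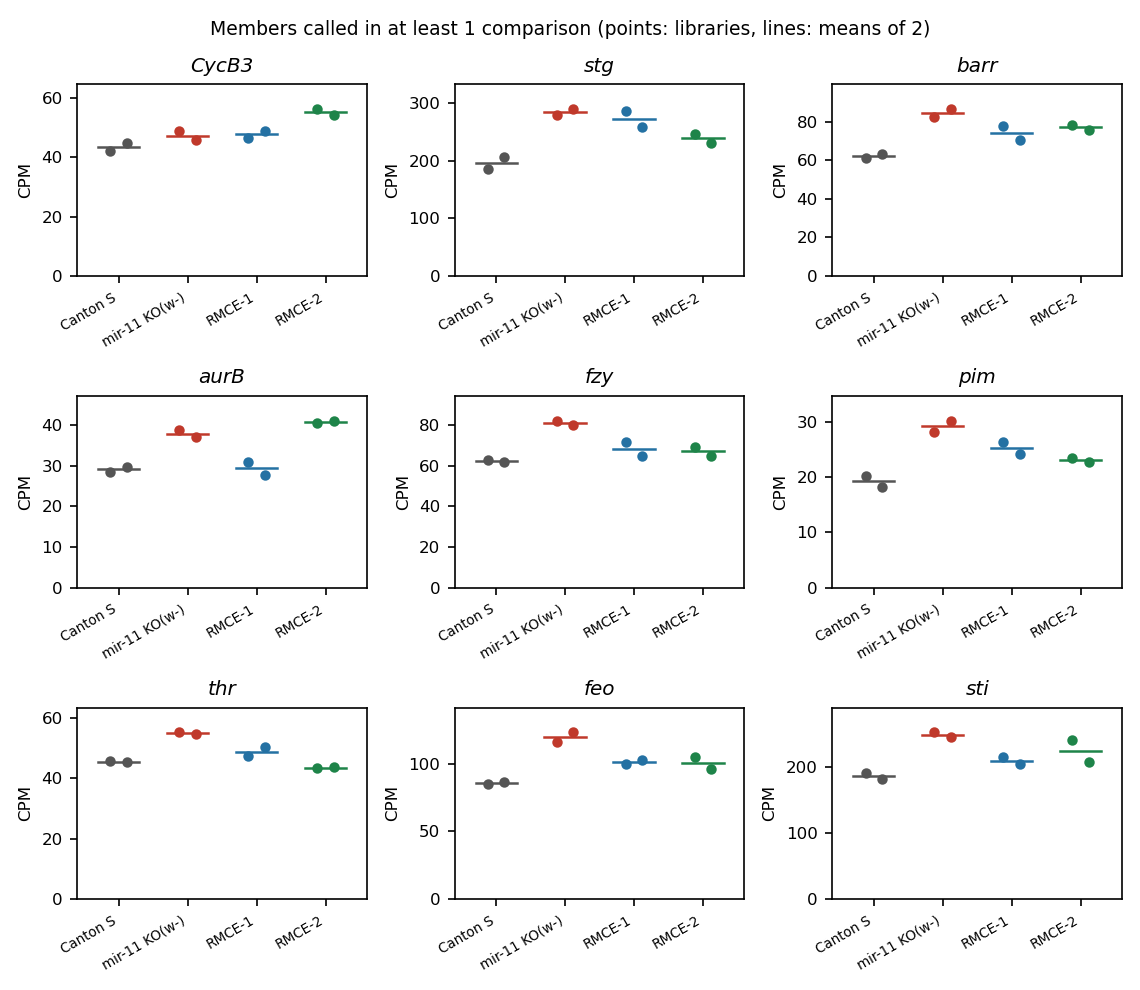
CPM of the 9 genes called in at least 1 comparison, with a point for each library and a line at the mean of 2, on axes that start at 0. Canton S is lowest for CycB3, stg, fzy, barr, pim, feo and sti. The level of aurB is high in the knockout stock and RMCE-2, at 37.2 to 41.1 CPM, and at 27.8 to 31.0 CPM in the other stocks.

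RMCE-1 and RMCE-2 were each compared with Canton S, whose libraries all 3 comparisons share. In RMCE-1, edgeR called 1 of the 46 genes higher and 0 lower, where 2.85% and 3.22% of all genes were called. In RMCE-2 it called 2 higher and 0 lower, where 2% and 1.6% of all genes were. The members' shares, 2.17% and 4.35%, are counts of 1 and 2 genes and lie near the backgrounds of 6.06% and 3.6% for calls in either direction. The median log2 fold change over the 46 genes was 0.090 in RMCE-1 and 0.053 in RMCE-2, beside 0.009 and 0.001 over all genes. Leaving out 1 library moved it between 0.045 and 0.118 in RMCE-1 and between 0.019 and 0.088 in RMCE-2, and without the 2 divergent libraries it was 0.103 and 0.065. In RMCE-1, 24 genes had both libraries above Canton S, against 26.5% of all genes, and 5, Klp61F, Klp3A, Klp10A, Mps1 and msps, had both below, against 25.2%. In RMCE-2 the counts were 18 above and 4 below, the latter CycA, Cdk1, Mps1 and thr, each against 25.7%.

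The gene called in RMCE-1 was stg, with a log2 fold change of 0.47 with an SE of 0.08 (edgeR adjusted p = 0.0213) from the library values above. It lost that call when Canton S replicate 1 or a knockout replicate was left out (up to 0.118), and without the 2 divergent libraries (0.0824). In RMCE-2 the estimate for stg was 0.28 (edgeR adjusted p = 0.111). The largest other estimates in RMCE-1 were those of pim at 0.39 (edgeR adjusted p = 0.0535), sub at 0.36 and Sse at 0.35.

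The genes called in RMCE-2 were aurB and CycB3. With DESeq2, no low-count filter or a replicate block aurB alone was called, and with only the stocks compared neither was. For aurB the log2 fold change over Canton S was 0.49 with an SE of 0.08 (edgeR adjusted p = 0.0207). It was lost without any single Canton S, knockout or RMCE-2 library (up to 0.122) and without the 2 divergent libraries (0.0707). CycB3 (3R 24867934 to 24870816, minus strand) encodes a B-type cyclin that acts into anaphase, and stood at 42.2 and 44.9 CPM in the Canton S libraries, 48.7 and 45.7 in the knockout libraries, 46.6 and 48.8 in those of RMCE-1 and 56.1 and 54.3 in those of RMCE-2. Both RMCE-2 libraries lay above the other 6. Its log2 fold change over Canton S was 0.34 with an SE of 0.07 (edgeR adjusted p = 0.0426), lost without any single Canton S, knockout or RMCE-2 library (up to 0.207) and without the 2 divergent libraries (0.164).

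For 13 genes both libraries of each of the 3 other stocks lay above both of Canton S, a pattern of 12.3% of all genes tested. They were CycB3, stg, fzy, Incenp, feo, barr, Cap-D2, Cap-H2, sti, tum, sub, pim and Sse. In the RMCE stocks the replicates differed in a common direction: 36 of the 46 genes were higher in replicate 1 of RMCE-1 and 34 in replicate 1 of RMCE-2, with median log2 differences of 0.13 and 0.09. In Canton S and the knockout stock the counts were 15 and 23, with medians of -0.03 and -0.00. The largest replicate difference was 0.41, for Cdk1 in RMCE-1. From replicate 1 to replicate 2 the muscle markers, all 6 read in every library, went from 6645 to 5228 CPM in RMCE-1 and from 5660 to 4204 CPM in RMCE-2. Neuroblast markers, all 6 read, went from a sum of 87.6 to 178 CPM and from 101 to 311 CPM, but not as a set. In RMCE-1 pros rose from 31.8 to 74.1 CPM and insc from 18.6 to 70.8 CPM. There wor rose by less, and ase, mira and dpn fell. In RMCE-2 pros rose from 30.3 to 231 CPM, while ase, wor, mira and dpn rose by less and insc fell from 39 to 24.8 CPM. Fat body markers went from 64.4 to 8438 CPM in RMCE-1 and from 459 to 2055 CPM in RMCE-2. Salivary gland markers went from 14.1 to 4009 CPM in RMCE-1 and from 18.9 to 8.09 CPM in RMCE-2, and heat response transcripts from 42.8 to 5009 CPM and from 835 to 137 CPM. The part of these transcripts in the replicate difference was not tested.

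**Figure D4:**
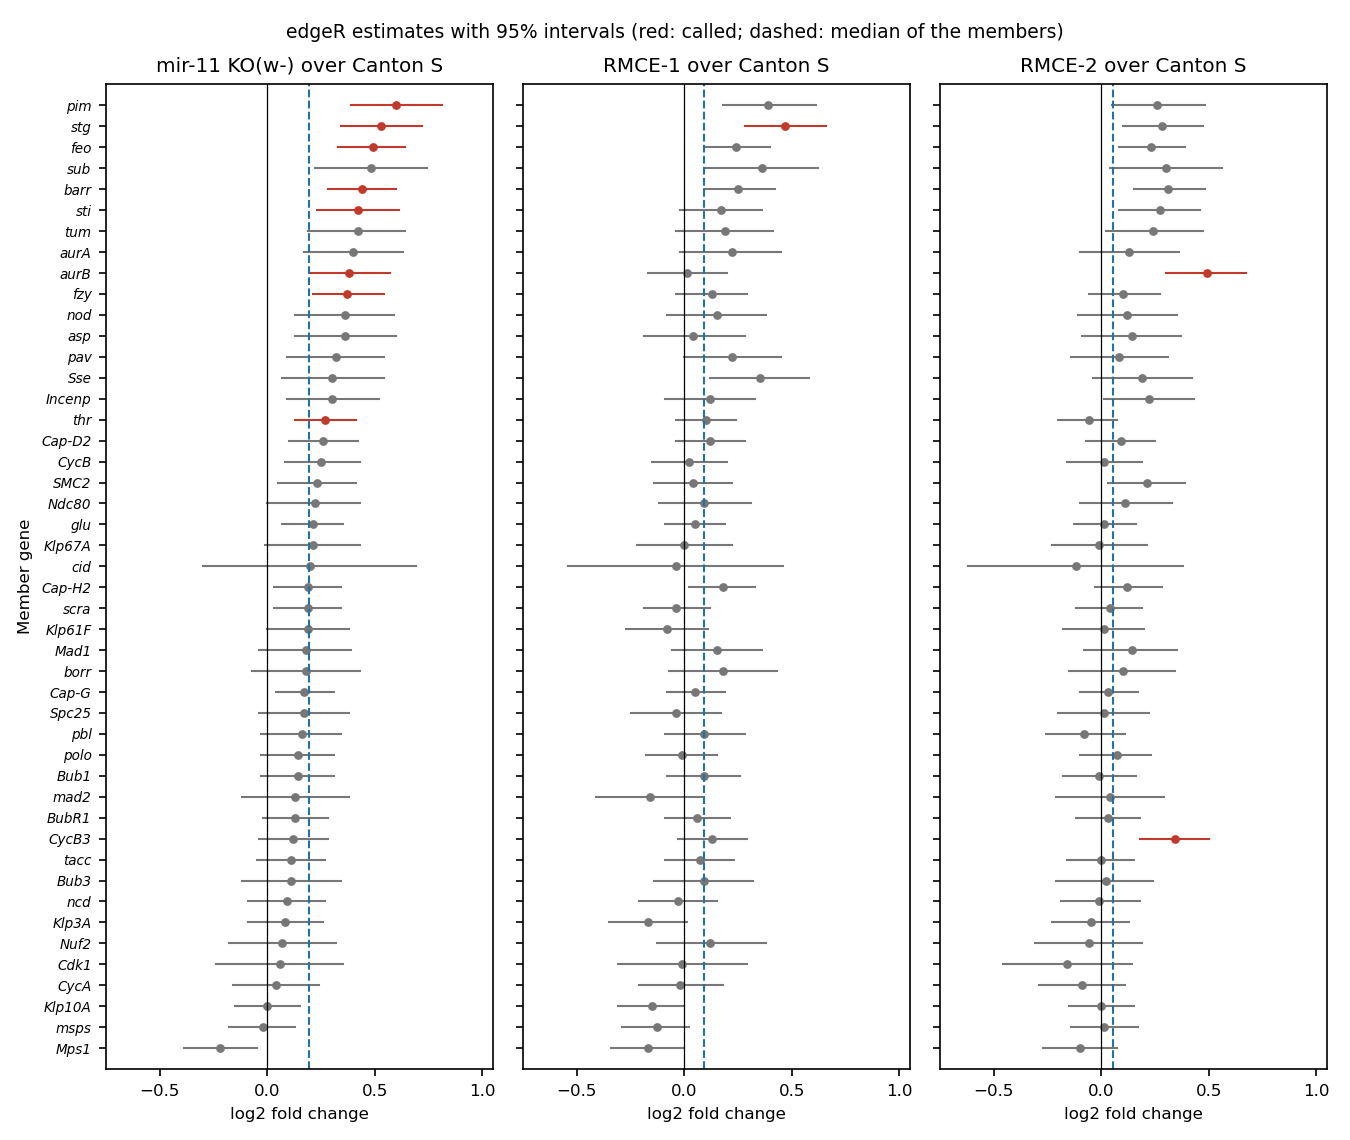
edgeR log2 fold changes over Canton S with 95% intervals for the 46 genes in the 3 other stocks, with called genes in red and a dashed line at the median of the 46. The medians fall at 0.194, 0.090 and 0.053 from left to right, and 8, 1 and 2 genes are red.

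Against the knockout stock, most estimates in the RMCE stocks lay below 0 and none of the 46 genes was called by edgeR or DESeq2. In RMCE-1, edgeR and DESeq2 each called 0 of the 46 genes, 16 had an unadjusted edgeR p under 0.05 (9.03% of all genes did), and 0.352% of all genes were called, 0.208% higher and 0.145% lower. In RMCE-2, edgeR and DESeq2 again called 0, 14 had an unadjusted edgeR p under 0.05 (13.2% of all genes did), and 0.578% of all genes were called, 0.334% higher and 0.244% lower. Both RMCE-1 libraries lay below both knockout libraries for 31 genes and above for 0, against 21.1% and 18.4% of all genes. For RMCE-2 the counts were 36 below and 3 above, the latter CycB3, aurB and Mps1, against 27.3% and 22.9%. Medians over the 46 genes were -0.153 for RMCE-1 and -0.142 for RMCE-2, beside -0.008 and -0.003 over all genes, and without the 2 divergent libraries they were -0.111 and -0.142. Other tissues moved here too. Salivary gland markers stood at 204 and 202 CPM in the knockout libraries, 14.1 and 4009 in those of RMCE-1 and 18.9 and 8.09 in those of RMCE-2, and hemocyte markers at 355 and 419, 385 and 432, and 265 and 259 CPM. The sum of the eye disc markers was lower in both RMCE stocks, as given above, but not every marker was. Of these, ro and sens overlapped the knockout libraries in both RMCE stocks, as did ey and so in RMCE-1 and gl in RMCE-2. The part of these transcripts in the result was not tested. The smallest adjusted p in RMCE-1 was that of aurB (log2 fold change -0.37, edgeR adjusted p = 0.189), and in RMCE-2 that of thr (-0.34, edgeR adjusted p = 0.073). The 95% intervals of the 46 genes ran from -0.74 to 0.30 in RMCE-1 and from -0.82 to 0.38 in RMCE-2, the lower end being that of cid in both.

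Between the RMCE stocks, edgeR called 1 of the 46 genes higher in RMCE-2 and 0 lower, where 0.94% and 0.741% of all genes were called, 1.68% in all. The gene was aurB, with a log2 fold change of 0.47 with an SE of 0.08 (edgeR adjusted p = 0.0371). It was lost when any 1 library other than RMCE-1 replicate 1 was left out (up to 0.153), and without the 2 divergent libraries (0.149). The median over the 46 genes was -0.018, beside -0.014 over all genes, and 7 genes had both RMCE-2 libraries above and 7 below both RMCE-1 libraries, against 21% and 20.8% of all genes. Without the 2 divergent libraries the median was -0.054, and leaving out RMCE-1 replicate 1 moved it to 0.057, above 0.

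Other genes of the cell division pathway were described from lists of 104 symbols, of which 99 were in the files and 97 were tested. In the knockout stock 7 of the 97 were called higher than in Canton S and 0 lower, with a median log2 fold change of 0.085, beside 2.37% and 2.39% called and a median of 0.010 over all genes. DESeq2 called 1, Nnf1b. Without the 2 divergent libraries edgeR called 0 of the 97, as it did when replicate 1 of Canton S or 1 of the knockout libraries was left out, and it called 1 without Canton S replicate 2, 4 without either RMCE-2 replicate and 7 without either RMCE-1 replicate. The called genes sat in kinetochore, centriole, cohesin and entry lists. Spindly, an adaptor that recruits dynein to kinetochores, stood at 52.6 and 54.5 CPM against 43.3 and 42.8 CPM (log2 fold change 0.31, edgeR adjusted p = 0.0348). The centriole assembly genes Sas-4 and Sas-6 had log2 fold changes of 0.38 and 0.50 (edgeR adjusted p = 0.0312 and 0.0309). Wee1, whose kinase puts the inhibitory phosphate on Cdk1 that String removes, had 0.36 (edgeR adjusted p = 0.0452), and the cohesin loader gene Mau2 0.38 (edgeR adjusted p = 0.0437).

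The kinetochore genes Nnf1b and Mis12 had the largest differences of the 97 in that comparison. Nnf1b stood at 0.296 and 0.752 CPM in the Canton S libraries, 3.26 and 5.11 in the knockout libraries, 2.5 and 2.23 in those of RMCE-1 and 7.13 and 5.8 in those of RMCE-2. Canton S was lowest without overlap, and its log2 fold changes were 2.99, 2.17 and 3.62 in the 3 other stocks (edgeR adjusted p = 0.015, 0.0411 and 0.00886). Without the 2 divergent libraries the values were 2.46, 1.72 and 3.09, and the third alone was called (edgeR adjusted p = 0.0554, 0.177 and 0.0367). Nnf1b has a paralog, Nnf1a, with which it may share reads, so its value is uncertain. Mis12 stood at 4.34 and 5.37 CPM in the Canton S libraries and 9.31 and 8.2 in the knockout libraries (log2 fold change 0.85, edgeR adjusted p = 0.0493).

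In RMCE-1, 4 of the 97 genes were called higher than in Canton S and 0 lower: Nnf1b, Sas-4, Sas-6 and the gamma-tubulin ring gene Grip84. That share of 4.12% lies near the 2.85% called higher, and 6.06% called in all, over all genes, and 0 were called without the 2 divergent libraries. In RMCE-2 Nnf1b was the 1 gene called by edgeR and 0 were lower, a share of 1.03% beside 3.6% of all genes. DNA replication genes, which peak in S phase rather than mitosis, had their lowest median against Canton S in RMCE-2. Of 14 tested, edgeR called 0 in each of the 3 comparisons with Canton S, DESeq2 called 1, Mcm7, lower in RMCE-2, and the number at an unadjusted p under 0.05 was 1 for the knockout stock, 2 for RMCE-1 and 8 for RMCE-2, where 20.9%, 23.2% and 19.4% of all genes had one. Their median log2 fold changes were -0.012, -0.042 and -0.227, and in RMCE-2 13 of the 14 had estimates below 0. The further cytokinesis genes, such as those of actomyosin and septins, had medians of -0.076, -0.076 and -0.060. The difference between these lists and the 46 genes was not tested.

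**Figure D5:**
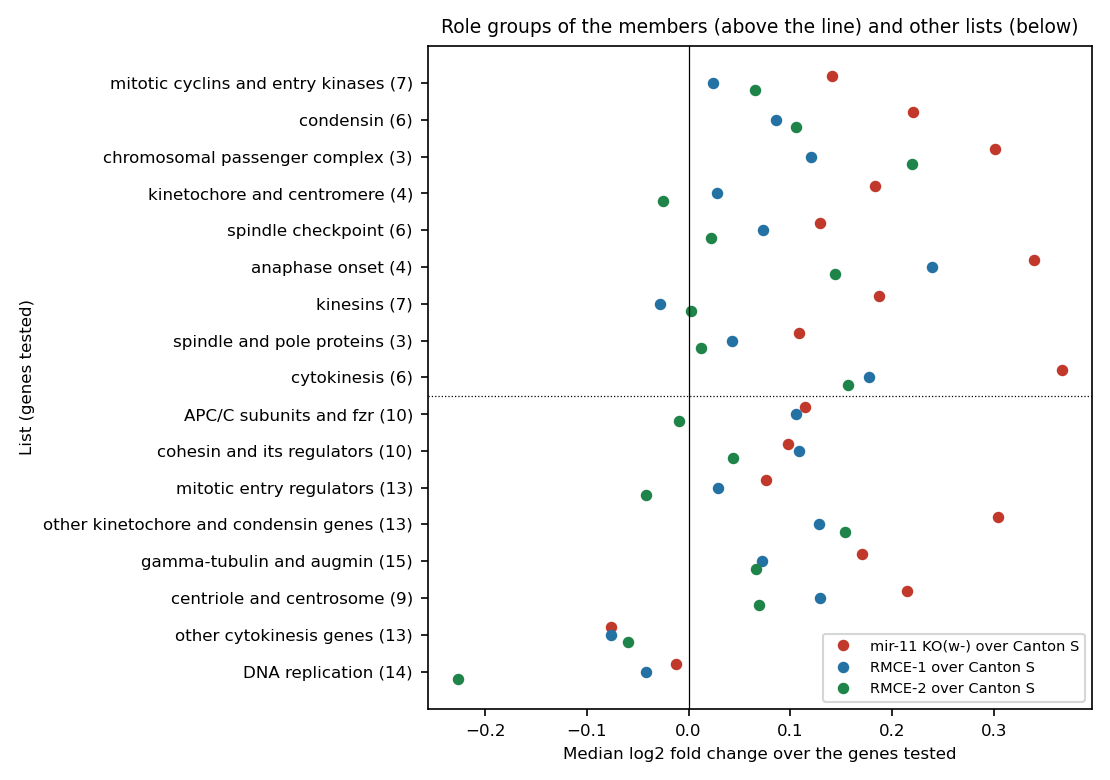
Median log2 fold change over Canton S of each role group (above the dotted line) and of the other lists (below it), with the number of genes tested in parentheses and colours for the 3 other stocks. In the knockout stock the cytokinesis and anaphase groups lie highest, at 0.37 and 0.34, and DNA replication in RMCE-2 lies lowest, at -0.23.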

How the data were processed

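The authors deposited raw read counts for each FlyBase gene, with no normalization. Per the submitters' processing notes, the tools were featureCounts, Subread, TopHat2, FastQC and CASAVA 1.8.2. The counting build, annotation and strand setting were not given in the sources used here, so for the 16 genes whose exons overlap a gene on the other strand the reads cannot be told apart with certainty. Per the labels' protocols, RNA was depleted of ribosomal RNA and read as single ends of 50 bp from strand-specific libraries. Symbols, positions and exon lengths come from BDGP6.54 (Ensembl 115).

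Counts were fitted with edgeR 4.0.16 in R 4.3.3: filterByExpr, TMM factors (0.9711 to 1.036), a mean for each stock with all 8 libraries in the fit, and a robust quasi-likelihood test (4 residual degrees of freedom). The p-values were adjusted by Benjamini-Hochberg over 11068 genes. Each p-value sets the difference between the stocks compared against the spread between libraries of the same stock. That spread was estimated over all 4 stocks, with information shared across genes. The edgeR test was also run on simulated data. Alternatives were DESeq2 1.42.0, other scalings and filters, a replicate block, fewer stocks, and libraries left out. Fits that leave libraries out test the same 11068 genes. They were first run with the filter applied anew, and the fixed set was adopted after both versions had been seen, so both are given below.

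The members and lists were chosen with earlier results of these data known. Called members are given in every library, and others by ranges or as the most abundant of their group. Where a further member is named (the largest or the smallest difference, for instance), it was chosen after its value was seen.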

Additional observations from a re-analysis of the deposited data

How the results depend on the processing

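Over 16 alternatives no single called value changed sign, and calls were kept in 108 fits and lost in 84. The number of genes called higher in the knockout stock against Canton S was 8 as reported, 18 with only these stocks in the fit, 2 without the 2 divergent libraries, and 0 to 10 without 1 library. For RMCE-1 over Canton S it was 1, then 2 with the stricter filter, 0 with only the stocks compared, 0 without that pair, and 0 to 1 without 1 library. For RMCE-2 over Canton S it was 2, then 1 with DESeq2, 1 with no filter, 0 with only the stocks compared, 0 without that pair, and 0 to 3 without 1 library. For RMCE-2 over RMCE-1 it was 1, then 0 with only the stocks compared, 0 without that pair, and 0 to 1 without 1 library, where its median ran from -0.054 to 0.057. With library totals alone the median of RMCE-1 against the knockout stock was -0.214. The cause was not tested. Applying the filter anew, an alternative added after the data were seen, gave 14 in place of 18, 2 in place of 1 without Canton S replicate 2, a median up to 0.064 for RMCE-2 over RMCE-1, and 0 for RMCE-1 over Canton S without RMCE-1 replicate 1. Calls over all genes in the knockout stock were then 337 in place of 177 without Canton S replicate 2, and 41 and 57 in place of 80 and 65 without knockout replicates 1 and 2.

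Correlations of replicate differences between stocks ran from -0.384, for the knockout stock with RMCE-2, to 0.362, for Canton S with the knockout stock. Such values cannot show whether libraries of the same replicate number were handled together. With the replicate block 6, 0, 1 and 0 genes were called in these 4 comparisons, and 318 in place of 526 over all genes in the first. Each stock had 2 libraries, which limits the precision of every estimate.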
